A study of Mus musculus with 4 samples.

Results

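Il1rapl1, Lrp1b, Dlg2, Csmd1, Wwox, Dab1 and Lsamp are 7 very long genes, several of them known from common fragile sites, in which S9.6 CUT&Tag or its control without primary antibody had called intervals in mouse P19 cells. They were chosen by earlier results of these data, in which each held a called interval, and are 7 of the 49943 placed genes of the gene table. The presence of intervals in them is how they were found and carries no test. P19 is an embryonal carcinoma line. S9.6 is an antibody against RNA:DNA hybrids, the paired part of an R-loop, and CUT&Tag directs a transposase to the bound antibody so that the DNA around it is cut and tagged. There were 4 libraries, 1 per condition. Cells of wild-type genotype carrying a control adenovirus (shCtrl) were profiled with S9.6 and, in a separate library, with the primary antibody left out. Cells with Ube2t knocked down by either of 2 hairpin adenoviruses (shUbe2t #1 and shUbe2t #2) were profiled with S9.6. Every library thus came from cells that had received an adenovirus. The peak names of the control list begin with IgG, so that "no antibody" follows its label only. Since no condition had a second library, the spread between replicates is unknown and no p-value is given. The 95% intervals below (exact Poisson for counts, Clopper-Pearson for shares) cover counting error only. Peak lists of DNA cannot show whether Ube2t was lowered, whether these genes were transcribed, or whether a weak signal came from few cells or from little signal per cell.

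Common fragile sites are chromosome stretches that break when DNA replication is slowed. Many lie in genes so long that transcription can meet a replication fork within the same cell cycle, and R-loops are among the structures studied at such encounters. The Fanconi anaemia pathway, in which UBE2T is the ubiquitin-conjugating enzyme, is known to act at these sites. Most of the encoded proteins serve the nervous system. Il1rapl1 and Lsamp encode neuronal adhesion proteins, Dlg2 a scaffold of the postsynaptic density, and Dab1 the adaptor of reelin signalling. Lrp1b encodes an endocytic receptor of the LDL receptor family, Csmd1 a membrane protein that regulates complement, and Wwox an oxidoreductase with WW domains whose gene spans a classical fragile site.

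The 7 genes ranged from 913 kb (Wwox) to 2197 kb (Lsamp), and their ranks by length among placed genes ran from 6 to 77. The median placed gene was 5.96 kb long. An interval counted for a gene when it overlapped the gene body or the 1000 bp beside it. Across the 4 lists the genes held 17 such intervals, which merged into 9 sites, 8 of them with S9.6 and 1 without antibody alone. Each interval had a single summit. Dlg2 and Wwox had 2 sites each and the other genes 1. Of the 8 S9.6 sites, 2 were called in all 3 S9.6 libraries (25%, against 19.7% of all 2692 placed S9.6 regions), 3 in 2 (37.5%, against 16.8%) and 3 in 1 (37.5%, against 63.4%). Depth, read from the genome-wide background in the deposited values, relative to shCtrl was 92.2% for shUbe2t #1, 93.6% for shUbe2t #2 and 58.7% for the library without antibody.

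**Figure D1:**
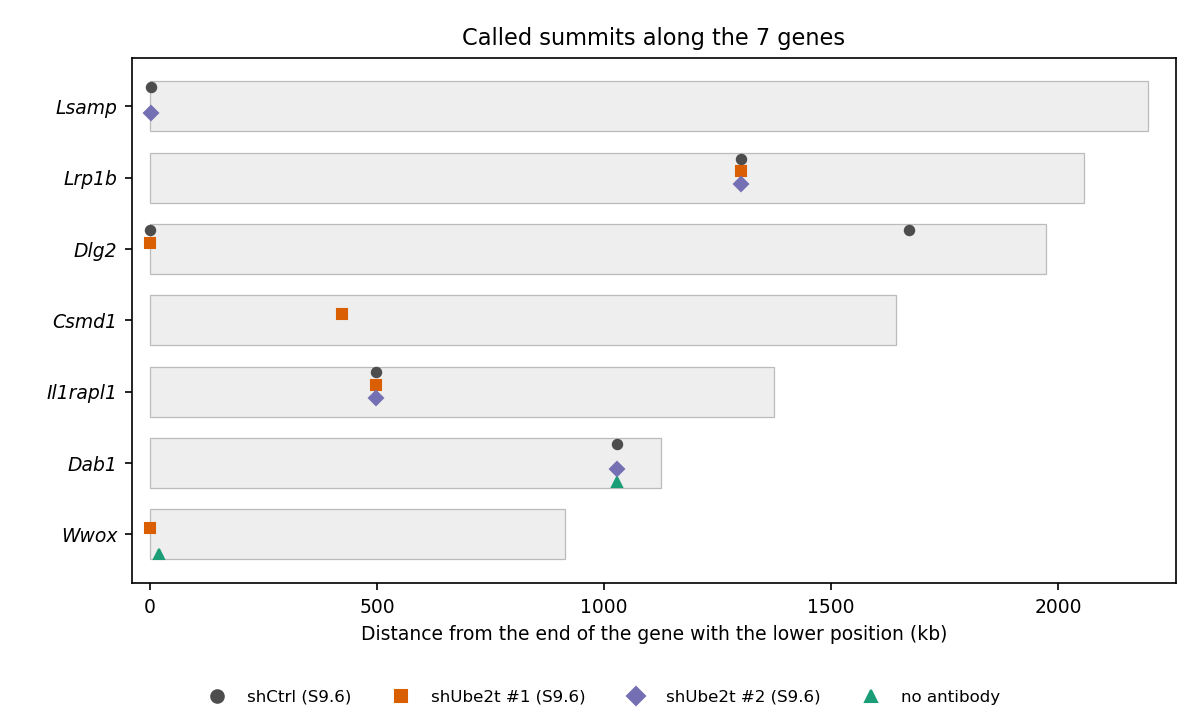
Position of every called summit along the 7 genes, in kb from the gene end with the lower position on mm10. Grey bars are the genes to scale and each marker is a summit of one library; Dlg2, Wwox and Lsamp have a site at the left end, Il1rapl1 and Lrp1b carry markers of all 3 S9.6 libraries, and the no-antibody markers lie in Dab1 and Wwox.

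The strongest of the 9 sites lay in the body of Il1rapl1 (gene 331461, chromosome X, 86740937 to 88115948). It was called in all 3 S9.6 libraries at chrX:87238257-87238521, with the same first and last base in each and summits within 4 bp of each other. It stood 497 kb from the lower gene end and 877 kb from the upper end, which holds the annotated start of this minus-strand gene. The fold enrichment over local background, as the authors' peak caller gave it, came to 20.1 (shCtrl), 25.7 (shUbe2t #1) and 21.9 (shUbe2t #2), with −log10 q of 50.9, 80.3 and 59.9. By fold it ranked 51 of 1263, 26 of 1519 and 47 of 1640 intervals. Among the intervals of each S9.6 list that were free of a no-antibody interval it ranked 1, so the intervals with a higher fold were sites that the control library also held.

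The Il1rapl1 summit held 48 fragments in shCtrl (35.4 to 63.6), 70 in shUbe2t #1 (54.6 to 88.4) and 55 in shUbe2t #2 (41.4 to 71.6). Scaled to the depth of shCtrl these were 48, 75.9 (59.2 to 95.9) and 58.8 (44.3 to 76.5). Both knockdown values were above shCtrl. The counting intervals of shCtrl and shUbe2t #1 overlapped only from 59.2 to 63.6, and such overlap is not a test of a difference. With 1 library per condition, whether knockdown changed this site was not tested. The surrounding 10000 bp held 72, 88 and 78 fragments, of which 24, 18 and 23 lay outside the summit. The genome-wide average for a stretch of that length was 65.7, 60.6 and 61.5 fragments. The signal was therefore a narrow pile in surroundings with fewer fragments than the genome-wide average. That average covers all chromosomes, and this site is on chromosome X. The copy number of chromosome X in these cells was not tested, so the low surroundings are not read as a trait of the site. Repeats and mappability of this stretch were not tested. Of the 576 regions called in all 3 S9.6 libraries, 24 (4.17%) had identical boundaries in the 3 lists, and 6 of these were free of a no-antibody interval while 18 overlapped one. The Il1rapl1 site had the highest fold of the 6. A higher fold in both knockdown libraries than in shCtrl was not particular to it. Other regions of the 24 had this too, some of them overlapping a no-antibody interval, while others of the 24 did not.

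Without antibody the Il1rapl1 site was not called, and the nearest no-antibody interval was 10639 kb away. At the depth of that library the S9.6 pileups would correspond to 28.2 fragments from shCtrl (20.8 to 37.4), 44.6 from shUbe2t #1 (34.7 to 56.3) and 34.5 from shUbe2t #2 (26.0 to 44.9). The smallest pileup that could have been called there was 7 or 8 fragments, given the local background.

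The other site of all 3 S9.6 libraries was in Lrp1b (gene 94217, chromosome 2, 40595290 to 42653598), at chr2:41896103-41896325. It lay 1301 kb from the lower gene end and 757 kb from the upper. Its folds of 6.91 (shCtrl), 7.68 (shUbe2t #1) and 7.14 (shUbe2t #2), with −log10 q of 7.62, 9.22 and 7.98, ranked 255 of 1263, 213 of 1519 and 258 of 1640. The summits, at most 15 bp apart, held 15, 16 and 15 fragments, or 15, 17.4 and 16.0 after scaling for depth. The libraries thus differed by less than counting error at this site, where the interval of the shCtrl summit alone ran from 8.40 to 24.7. Lrp1b was not called without antibody. The S9.6 pileups scaled to that library came to 8.80, 10.2 and 9.41 fragments and a call needed 7, but the lower counting bounds of 4.93, 5.82 and 5.27 fell below it.

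**Figure D2:**
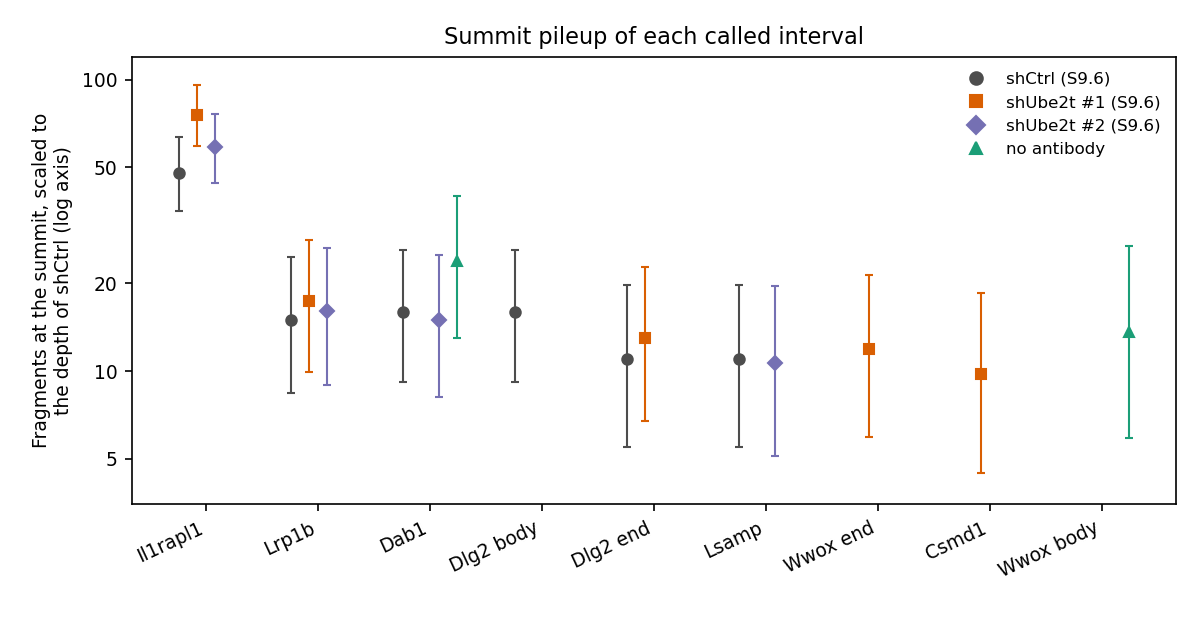
Fragments at the summit of each called interval, scaled to the depth of shCtrl (log axis), by site and library; bars are 95% Poisson intervals of the count, and a missing marker means no call. Il1rapl1 stands at 48 to 75.9 fragments while the other called summits lie between 9.76 and 23.9, with overlapping bars at each site that has more than 1 marker.

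At 3 of the 8 S9.6 sites the interval lay at a gene end. The site of Dlg2 (gene 23859, chromosome 7, 90476188 to 92449246) was at its lower end, which is the 5′ end since the promoter table gives this gene the plus strand. In shCtrl the interval (90475959 to 90476158) overlapped the neighbour Tmem126b and ended 30 bp short of Dlg2, and in shUbe2t #1 (90475980 to 90476238) it reached into both genes. The 192 bp between Dlg2 and Tmem126b, a gene for an assembly factor of mitochondrial complex I on the minus strand, held both summits, 81 and 86 bp from Tmem126b and 112 and 107 bp from Dlg2. The site therefore lies at the ends of both genes and cannot be assigned to either. Its folds were 5.04 in shCtrl and 4.89 in shUbe2t #1, with −log10 q of 3.49 and 3.57 and with 11 and 12 fragments at the summit. There was no call in shUbe2t #2 or without antibody. At the depth of the no-antibody library these pileups came to 6.46 and 7.64 fragments, below the 7 and 8 needed.

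The stretch below is printed because it holds the whole shUbe2t #1 interval and the part of the shCtrl interval that overlaps it. It is the RefSeq start window of Tmem126b (GRCm38.p6, the build also called mm10), minus strand, 5′ to 3′, at chr7:90475980-90476245, that is, the window without its last bases. The 179 bases in capitals were covered by the intervals of both libraries.
Tmem126b: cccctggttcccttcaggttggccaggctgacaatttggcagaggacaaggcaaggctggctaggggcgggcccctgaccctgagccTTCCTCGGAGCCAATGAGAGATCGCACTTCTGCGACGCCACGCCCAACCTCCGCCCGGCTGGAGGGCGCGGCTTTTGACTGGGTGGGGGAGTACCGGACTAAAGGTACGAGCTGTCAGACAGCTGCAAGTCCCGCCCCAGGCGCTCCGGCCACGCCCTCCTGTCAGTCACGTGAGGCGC
These 179 bases were 66.5% G or C and held 17 CG. The whole 300-base window held 21 CG, a number reached by 24.8% of the 32851 windows in the table.

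Lsamp (gene 268890, chromosome 16, 39984254 to 42181679) had its site 630 bp inside the lower end, at chr16:39984884-39985133. This is also the 5′ side, 520 bp past an annotated start in shCtrl and 549 bp past it in shUbe2t #2, the libraries that held a call. The fold was 4.32 in shCtrl and 3.87 in shUbe2t #2, which was rank 841 of 1263 and 1408 of 1640, in the weaker part of both lists. The summits held 11 and 10 fragments. The deposited −log10 q was 2.50 and 1.83. In shUbe2t #1 the site was not called. The nearest shUbe2t #1 interval outside the gene lay 8.90 kb beyond one of the gene ends, a distance not measured from the site.

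Lsamp has 2 start windows in the RefSeq table, and they are printed as a pair because 1 was close to the S9.6 site and the other was not. The first, at chr16:39984114-39984363, ended within 1000 bp of the intervals. The second, at chr16:41532576-41532825, lay 658 kb from any S9.6 interval. Both are shown on the plus strand for the 250 bases before the start, 5′ to 3′, with each CG in capitals.
Lsamp start near the site: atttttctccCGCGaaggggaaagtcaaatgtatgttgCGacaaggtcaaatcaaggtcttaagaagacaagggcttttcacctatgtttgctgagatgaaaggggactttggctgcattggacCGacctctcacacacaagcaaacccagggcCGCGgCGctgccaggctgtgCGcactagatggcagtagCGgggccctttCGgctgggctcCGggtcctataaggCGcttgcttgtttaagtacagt
Lsamp other start: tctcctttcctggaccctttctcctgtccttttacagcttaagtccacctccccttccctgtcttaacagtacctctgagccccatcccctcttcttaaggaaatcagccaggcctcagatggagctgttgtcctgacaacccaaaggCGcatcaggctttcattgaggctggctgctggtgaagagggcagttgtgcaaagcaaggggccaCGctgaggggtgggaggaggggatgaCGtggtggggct
The first holds 12 CG and the second 3, against a median of 7 over all windows of the table. At least 12 CG were found in 39.6% of windows and at least 3 in 76.7%. CG was searched as these letters, which read the same on both strands. Over the 300-base windows G and C made up 53.0% of the first and 56.3% of the second, so the pair differed in CG and little in base composition. In all, 4 of the 7 genes were in the promoter table, with 8 windows, and the first Lsamp window was the 1 that came within 1000 bp of an S9.6 interval. The 3 Dlg2 windows held 3, 1 and 2 CG and were 85.2 kb or more from any S9.6 interval. None of them lies at the lower end of Dlg2, where the end site was called, so that end has no Dlg2 window here. A Dab1 window with 46 CG, a number reached by 1.65% of windows, was 281 kb from the nearest S9.6 interval.

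The site at an end of Wwox (gene 80707, chromosome 8, 114439635 to 115352712) was called in shUbe2t #1 alone, at chr8:114439981-114440180, 346 bp inside the lower end. Its fold was 5.26, its −log10 q 3.84, and its summit held 11 fragments (5.49 to 19.7). Scaled for depth this is 11.9 fragments in shCtrl and 11.2 in shUbe2t #2, where 8 would have been called. The lower counting bounds of 5.95 and 5.57 were under that number. Wwox was not in the promoter table, so its strand is not given here. It also held the single site called without antibody alone, 20.3 kb inside the same end at chr8:114459957-114460156, with a fold of 4.25, a −log10 q of 1.66 and 8 fragments. Wwox thus had 1 interval with S9.6 and 1 without antibody, 19.8 kb apart.

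**Figure D3:**
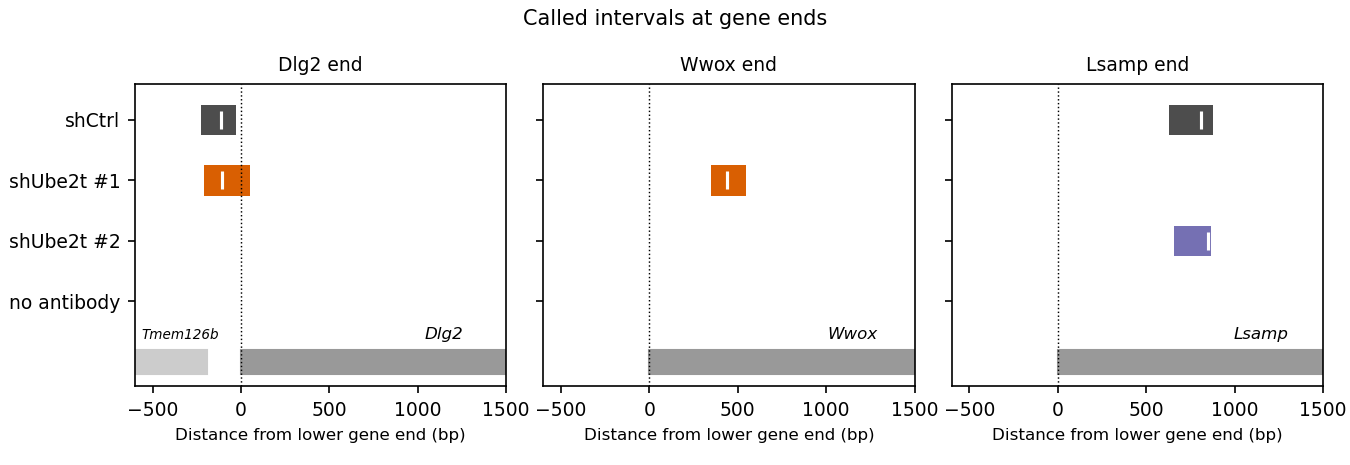
Called intervals at the lower ends of Dlg2, Wwox and Lsamp, in bp from the annotated gene end (dotted line); coloured bars are intervals by library, white ticks their summits, and grey bars the annotated genes. The summits of the Dlg2 end lie between Tmem126b and Dlg2 while the intervals overlap Tmem126b, in shUbe2t #1 Dlg2 too, and those of Wwox and Lsamp begin 346 and 630 bp inside the gene.

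The remaining S9.6 sites were in gene bodies. Dab1 (gene 13131, chromosome 4, 103619500 to 104744844) had a site 95.8 kb from its upper end, at chr4:104648732-104649025, and this was the 1 of the 8 S9.6 sites that overlapped a no-antibody interval. Its fold was 5.78 in shCtrl, 4.84 in shUbe2t #2 and 6.0 without antibody, with −log10 q of 6.18, 4.06 and 5.69. The summits held 16, 14 and 14 fragments, and scaled to the depth of shCtrl 16, 15.0 and 23.9 (13.0 to 40.0). The highest scaled value was thus that of the library without antibody, with an interval that overlapped the S9.6 values. In shUbe2t #1 the Dab1 site was not called, although the shCtrl pileup scaled to that library was 14.8 fragments (8.43 to 24.0) against 9 needed.

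The second site of Dlg2 was called in shCtrl alone, at chr7:92147675-92148128, 301 kb from the upper end. It was 454 bp wide, the widest of the 9, with a fold of 5.52, a −log10 q of 5.75 and 16 fragments. Its scaled pileup of 14.8 fragments in shUbe2t #1 (8.43 to 24.0) and 15.0 in shUbe2t #2 (8.56 to 24.3) exceeded the 10 needed there, and the lower counting bounds did not. Csmd1 (gene 94109, chromosome 8, 15892538 to 17535385) had a site in shUbe2t #1 alone, at chr8:16314685-16314939, 422 kb from the lower end. With a fold of 4.07, a −log10 q of 1.86 and 9 fragments (4.12 to 17.1), it was the weakest of the S9.6 sites by pileup. Its scaled values of 9.76 fragments in shCtrl and 9.13 in shUbe2t #2 stood next to the 9 needed for a call. Outside the summits, where the deposited values gave it, the 10000 bp around the sites other than Il1rapl1 held from 47 fragments (Lrp1b in shUbe2t #2) to 91 (Dab1 in shUbe2t #2). For Lrp1b in shCtrl and shUbe2t #1 the background was at the lowest of the list. No value could be given there, and it may lie below 47.

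Over the 9 sites there were 12 pairs of a site and an S9.6 library that did not call it. The nearest interval left out by the 1000 bp limit was that 8.90 kb from Lsamp, and the one nearest to the limit among those counted was the shCtrl interval 30 bp outside Dlg2. The scaled pileups given above come from summits already chosen for passing the threshold, at similar depths, so that they reach it is close to fixed. Their lower counting bounds fell under the smallest callable number in all of the 12 but 1, Dab1 in shUbe2t #1 as scaled from the no-antibody pileup. The missing pileups themselves are not in the lists, so whether these sites differed between knockdown and control was not tested. The comparisons of shUbe2t #1 and of shUbe2t #2 with control also share the shCtrl library.

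Long genes offer more sequence in which an interval can fall, so the counts were set beside those of all placed genes and of the 77 genes at least as long as Wwox. An interval was held by 5 of the 7 genes in shCtrl, against 1.79% of all placed genes and 19.5% of the 77. In shUbe2t #1 it was again 5 of 7, against 2.74% and 14.3%. In shUbe2t #2 it was 4 of 7, against 3.0% and 16.9%, and without antibody 2 of 7, against 0.493% and 7.79%. The 7 are among the 77 and were chosen for holding intervals, so nothing is read from their own counts.

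Per Mb of sequence the other 70 genes of this length held fewer intervals than gene bodies as a whole. The 7 genes chosen for their intervals are left out of the 70 but kept in all gene bodies. This choice lowers the values of the 70, and their counting intervals do not cover it. The 70 had 0.199 intervals per Mb in shCtrl (0.118 to 0.314), 0.143 in shUbe2t #1 (0.0763 to 0.245) and 0.165 in shUbe2t #2 (0.0926 to 0.273). All gene bodies together had 0.611 (0.569 to 0.654), 0.845 (0.796 to 0.896) and 0.929 (0.877 to 0.983). Without antibody the values were 0.0662 (0.0243 to 0.144) and 0.187 (0.164 to 0.212), so the control list was also sparser there. The 7 genes had 0.531 in shCtrl (0.195 to 1.16), 0.443 in shUbe2t #1 (0.144 to 1.03), 0.354 in shUbe2t #2 (0.0965 to 0.906) and 0.177 without antibody (0.0214 to 0.639). The 7 were chosen for their intervals, so their values are given as a description and not read against all gene bodies. The imprinted noncoding gene Snhg14 alone held 14 of the 35 S9.6 regions of the other 70 genes, and leaving it out gave 0.134, 0.0559 and 0.101 in the S9.6 libraries and 0.0447 without antibody.

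**Figure D4:**
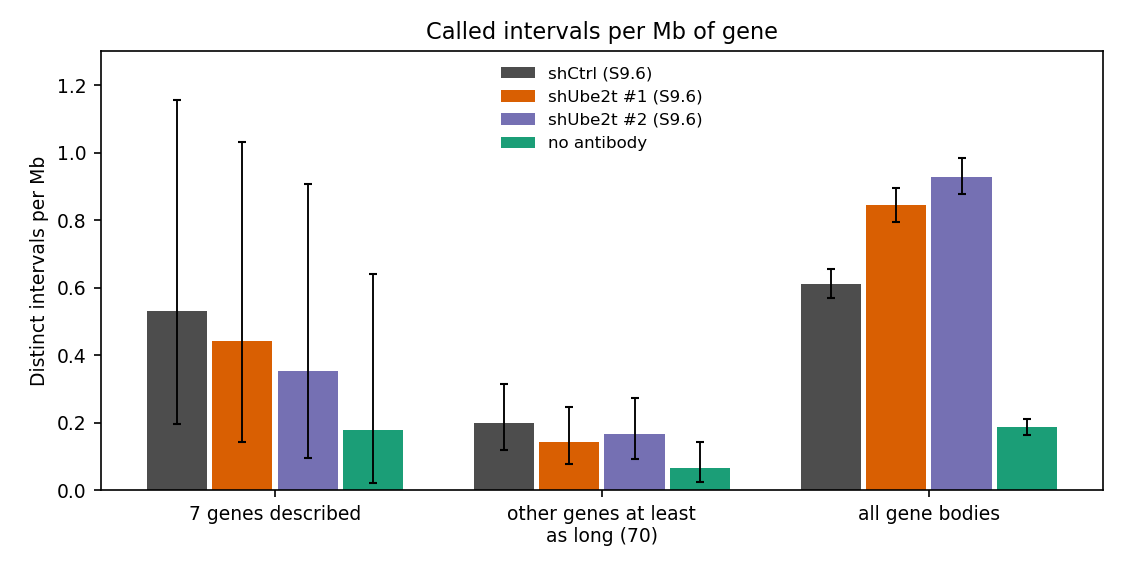
Distinct called intervals per Mb of gene body with 1000 bp on either side, for the 7 genes described, the other 70 genes at least as long as Wwox, and all gene bodies, by library; bars start at 0 and error bars are 95% Poisson intervals of the count. The 70 long genes lie at 0.143 to 0.199 in the S9.6 libraries, below the 0.611 to 0.929 of all gene bodies.

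The S9.6 sites of the 7 genes were set beside other S9.6 regions by class. At an end of the gene lay 3 of their 8 sites (37.5%, 8.52 to 75.5), 4 of the 35 regions of the other 70 genes (11.4%, 3.20 to 26.7) and, counting the end of any gene, 52.9% of all 2692 placed S9.6 regions (51.0 to 54.8). A no-antibody interval overlapped 1 of 8 (12.5%, 0.316 to 52.7), 3 of 35 (8.57%, 1.80 to 23.1) and 14.9% (13.6 to 16.3). With 8 sites these shares could not be told from either comparison set. Of the 35 regions, 3 were called in all 3 S9.6 libraries (8.57%), 5 in 2 (14.3%) and 27 in 1 (77.1%).

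Another 33 genes known from fragile sites or for their length were looked up as a list, and 6 of the 33 held an interval. The 7 genes were on the same list and were taken out, so the counts of the 33 are low by choice. Each of the 4 peak lists held an interval in 2 of the 33. Of the 77 long genes, 19.5% (shCtrl), 14.3% (shUbe2t #1), 16.9% (shUbe2t #2) and 7.79% (no antibody) held one. Of all placed genes it was 1.79%, 2.74%, 3.0% and 0.493%. Gpc6, a glypican gene, had overlapping intervals in shCtrl (fold 4.75) and shUbe2t #1 (4.52), the same pair of libraries as the Dlg2 end. Ctnna2, an alpha-catenin gene of neurons, had an interval in shUbe2t #1 at 12 bp from one end (5.07). Ptprd, a receptor phosphatase gene, had one in shCtrl (4.55), Auts2 one in shUbe2t #2 (3.95), and Npas3, a transcription factor gene, one without antibody (4.79). Fhit, Macrod2, Dmd and Immp2l were among the genes that held none in any list.

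Among the 77 long genes the most S9.6 regions were in Snhg14, followed by Agbl4, a gene for a cytosolic carboxypeptidase, with 3, and by Dlg2, Igh, Lingo2 and Sox5 with 2 each. Likeness was taken as the same set of lists holding a region. The Csmd1 site and the Wwox end, called in shUbe2t #1 alone, were matched by 7 regions in 4 other long genes, and the Dlg2 body site, called in shCtrl alone, by 11 regions in 8. The Dlg2 end was matched by regions in Gpc6 and Snhg14, Lsamp by regions in Igh and Sox5, and the Wwox body by regions in Pde4d and Sox5, among others. The pattern of Il1rapl1 and Lrp1b, called in all 3 S9.6 libraries and not without antibody, was found in 0 of the other 70 genes, as was that of Dab1. Genome-wide, 210 of the 576 regions called in all 3 S9.6 libraries were free of a no-antibody interval, and the 7 genes were chosen for holding intervals, so nothing particular to them is read from this.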

How the data were processed

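Each of the 4 libraries had its own deposited peak list. The tools named in the submitters' processing notes are Trimmomatic, MACS2 2.1.2 and Bowtie, given there as 0.7.12, with mm10 as the build. How duplicates were handled and whether a control library entered the peak calling is not given in the sources used here. Per the labels' protocols, libraries came from a commercial CUT&Tag kit. The deposited fold is a ratio of summit to local background, and the deposited p-value and q-value are on a −log10 scale. The deposited score is the −log10 q times 10, cut to a whole number, and was not used. Replicates were not analysed here, so each list describes its library alone.

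Intervals were reduced to the best summit by p, counted for a gene with 1000 bp on either side, and merged at 0 bp into sites. Gene positions came from RefSeq (GRCm38.p6), without exons. From fold and p the pileup at the summit and its background were computed (pseudocount 1, Poisson tail); every solved pileup was whole within 0.05, and 1232 of 1263 shCtrl, 1487 of 1519 shUbe2t #1, 1609 of 1640 shUbe2t #2 and 498 of 516 no-antibody intervals could be solved. Backgrounds were counted as fragments of 200 bp in 10000 bp. The lowest background of a list measured its relative depth. The smallest callable pileup used the lowest −log10 p of the list and the scaled local background. Pileup recovery and overlaps were tested on simulated data. The members and gene lists were chosen with earlier results of these data known, and the genes named beside them follow a written rule: all 7 members, listed long genes with an interval, neighbours at an interval, and the 5 long genes with most S9.6 regions (6 with ties). Of the listed long genes, 1 with intervals is counted but not reported here. Python 3.11.15, scipy 1.17.1 and pandas 2.3.3 were used.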

Additional observations from a re-analysis of the deposited data

How the results depend on the processing

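Of 35 values recomputed under another setting, 30 stayed within 1.5 times (counts) or within the counting interval (intervals per Mb) and 5 moved. The counting intervals are wide, so the rule for intervals per Mb is lenient. At a −log10 q of at least 5 the 7 genes went from 0.443 to 0.177 per Mb in shUbe2t #1. This was not counted as moved, although the same drop as a count was. A deposited −log10 q of at least 5 left 2 intervals of the 7 genes in shUbe2t #1, 2 in shUbe2t #2 and 1 without antibody, and 4 of the 9 sites (Il1rapl1, Lrp1b, Dab1 and the Dlg2 body), since fewer intervals pass. Leaving out Snhg14, chosen after the data were examined, gave 0.0559 intervals per Mb in the other long genes of shUbe2t #1. The gene body alone, a wider flank, counting every summit, merging within 500 bp and other overlap rules moved none of the counts beyond 1.5 times. No paired analysis was possible because each condition has 1 library. Depth is a limit throughout: apart from Il1rapl1, the summits held 8 to 16 fragments.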

Other observations

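Snhg14, the imprinted noncoding host gene of small nucleolar RNA clusters, was set apart among the long genes. Its 1177 kb held 6 (shCtrl), 8 (shUbe2t #1) and 6 (shUbe2t #2) intervals with S9.6 and 2 without antibody. The S9.6 intervals made up 14 regions, 2 of them called in all 3 S9.6 libraries and 10 in 1. This is 11.9 regions per Mb, against 0.455 in Lsamp and 1.09 in Wwox, the lowest and the highest of the 7 genes. There were 0 of the 14 at an end of Snhg14, and 2 overlapped a no-antibody interval.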
